A study of Mus musculus with 12 samples.

Results

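The MHC class I antigen presentation genes B2m, H2-K1, H2-D1, Tap1, Tap2, Tapbp, Psmb8, Psmb9, Psmb10 and Nlrc5 were described in the livers of mice without A1cf. They were chosen by gene name for their role in the pathway, and are 10 of the 46882 gene names in the deposited count table. Liver mRNA of 6 A1cf -/- mice (KO) was set against that of 6 wild-type mice (WT), 1 library per mouse. All mice were of the C57BL/6 strain and 6 to 8 weeks old, and the labels name no treatment. A1CF binds RNA and is best known for its work with the APOBEC1 deaminase on Apob mRNA. The labels name neither the deleted part of A1cf nor the way the allele was made.

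Class I molecules display peptides from a cell's own proteins to cytotoxic T cells. Peptides are cut by the proteasome, carried into the endoplasmic reticulum by the TAP transporter and loaded onto a heavy chain paired with beta-2-microglobulin. Interferon-gamma is known to raise the genes of this pathway, to replace the standard catalytic subunits of the proteasome with the immunoproteasome subunits, and to induce NLRC5, which has no DNA-binding domain of its own and acts on class I promoters through factors bound at their conserved SXY module.

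The X2 and Y cores of the SXY module are shown because the module is the known link between Nlrc5 and the heavy chain and B2m genes. The rest of the module was not searched. RefSeq promoters of build GRCm38.p6, which run from 250 bases before to 50 bases after each annotated start, were matched for 8 of the 10 genes, all but Nlrc5 and Tap2. The cores of the X2 and Y boxes were searched as TGACG, then any 20 bases, then ATTGG, on both strands and within the bases before the start. This pair stood in the promoters of 26 of 27025 genes (0.0962%), and 3 of the 8 genes were among them, namely B2m, H2-K1 and H2-D1. As the module is known from class I promoters, these matches were given at least in part by the choice of pattern. No other spacer length was searched. TGACG alone stood in 19.8% of promoters and ATTGG alone in 37.5%. The matches are printed 5′ to 3′ on the strand of the gene, with the 2 cores in capitals.
B2m: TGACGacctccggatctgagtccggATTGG
H2-K1: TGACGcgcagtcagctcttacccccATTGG
H2-D1: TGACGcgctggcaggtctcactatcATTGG

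The B2m match lay at chr2:122147609-122147638 on the plus strand, 78 to 49 bases before the start. That of H2-K1 lay at chr17:34000359-34000388 on the minus strand, 41 to 12 bases before one annotated start and 55 to 26 before the other. That of H2-D1 lay at chr17:35262993-35263022 on the plus strand, 101 to 72 bases before the start. Between the cores, which are alike by the search, the H2-K1 and H2-D1 stretches shared 13 of 20 bases, while that of B2m shared 3 of 20 with H2-K1 and 2 of 20 with H2-D1. Of 13 other class I heavy chain genes with a promoter in the table, H2-M3 alone held the pair.

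The kappaB element of the heavy chain promoters is shown for its match between H2-K1 and H2-D1. The decamer searched, GGGGA directly followed by TTCCC, is the one known from the H2-K1 promoter, so its match in H2-K1 was given by the choice. Searched on both strands, it stood in 27 of 27025 promoter genes (0.0999%), and H2-K1 and H2-D1 were 2 of them. With 10 bases on each side and the decamer in capitals, these stretches, at chr17:34000439-34000468 on the minus strand and chr17:35262913-35262942 on the plus strand, were as follows.
H2-K1: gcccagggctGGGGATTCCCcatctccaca
H2-D1: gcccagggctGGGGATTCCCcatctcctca

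Elements of the interferon pathway are shown because they bear on the same genes. The core of an interferon-stimulated element, GAAA, then any 2 bases, then GAAA, searched on both strands, stood in 3.46% of promoters and, of the 8 genes, in B2m at chr2:122147538-122147567 on the plus strand. The core of a gamma-activated site, TTC, then any 3 bases, then GAA, which reads alike on both strands, stood in 8.13% of promoters and, of the 8 genes, in Psmb8 at chr17:34198088-34198116 on the plus strand. The matched letters are in capitals.
B2m: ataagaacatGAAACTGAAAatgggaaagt
Psmb8: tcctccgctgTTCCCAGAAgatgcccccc

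On mm10, as the deposited table gives it, 7 of the 10 genes lay on chromosome 17. These were Tapbp (33915899 to 33929288), H2-K1 (33996017 to 34000333), Psmb9 (34181988 to 34187764), Tap1 (34187553 to 34197225), Psmb8 (34197721 to 34201454), Tap2 (34203527 to 34216321) and H2-D1 (35262730 to 35267499). B2m lay on chromosome 2 (122147686 to 122153083), and Nlrc5 (94472763 to 94527272) and Psmb10 (105935728 to 105938392) on chromosome 8. Psmb9 and Tap1 share 212 bases of exon on opposite strands, and the counting set no strand, so reads there cannot be assigned to either gene. Tapbp shares 665 exon bases with Gm19412 and 61 with Zbtb22, Tap2 533 with Gm15821 and 165 with Gm20496, and Psmb8 186 with Gm20496. Levels per kilobase below use the full exon length. For these genes they are too low to the extent that reads there were left out. For H2-D1 and Psmb8 the gene spans of the deposited table begin upstream of the RefSeq starts, so the printed matches of these 2 genes lie inside those spans. H2-K1 and H2-D1 have close relatives in the same complex, so their counts, and those of the other H2 genes below, are uncertain to the extent that reads were shared among copies.

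Total counts per library lay between 22129092 and 51082317 in KO and between 25898171 and 40597491 in WT. After a filter on low counts, 13706 genes were tested, and all 10 antigen presentation genes passed it. A1cf, the targeted gene, had 8.20 to 12.6 CPM in KO livers and 47.9 to 53.8 CPM in WT livers, without overlap (log2 fold change -2.26, SE 0.09). CPM, the usual measure of counts relative to library size, are scaled by TMM. Of all tested genes, 523 (3.82%) passed a Benjamini-Hochberg adjusted p of 0.05 in the quasi-likelihood test of edgeR, 236 of them (1.72%) higher and 287 (2.09%) lower in KO. Scaled by library totals only, the same test called 405 genes (2.95%), 266 higher and 139 lower. Hepatocyte markers such as albumin and transthyretin were the most abundant of the marker lists, at a summed 78580 to 98560 CPM in KO and 86070 to 107800 CPM in WT.

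Among the 10 antigen presentation genes, Nlrc5 rose in KO livers and the other 9 did not pass the test. The 1 call in 10 stands beside 3.82% called among all tested genes, or 1.72% called higher. The median log2 fold change of the 10 genes was 0.16, with 7 of 10 above 0, against a median of 0.01 and 51.8% above 0 over all tested genes. Their median was 0.10 without KO 584 and 0.09 without KO 588, 0.06 in the libraries numbered 573 to 602, 0.05 without the 5 libraries with high Saa1, 0.07 without the 2 deepest or with Saa1 as a covariate, and -0.05 with the number range as a covariate, settings described with Nlrc5 and Saa1 below. None of the 10 had groups without overlap, which 3.3% of all tested genes had (1.33% with KO above WT and 1.97% with KO below). By DESeq2, which called 7.48% of its genes, and by limma-voom, which called 4.18%, the count was also 1 of 10, Nlrc5 each time.

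**Figure D1:**
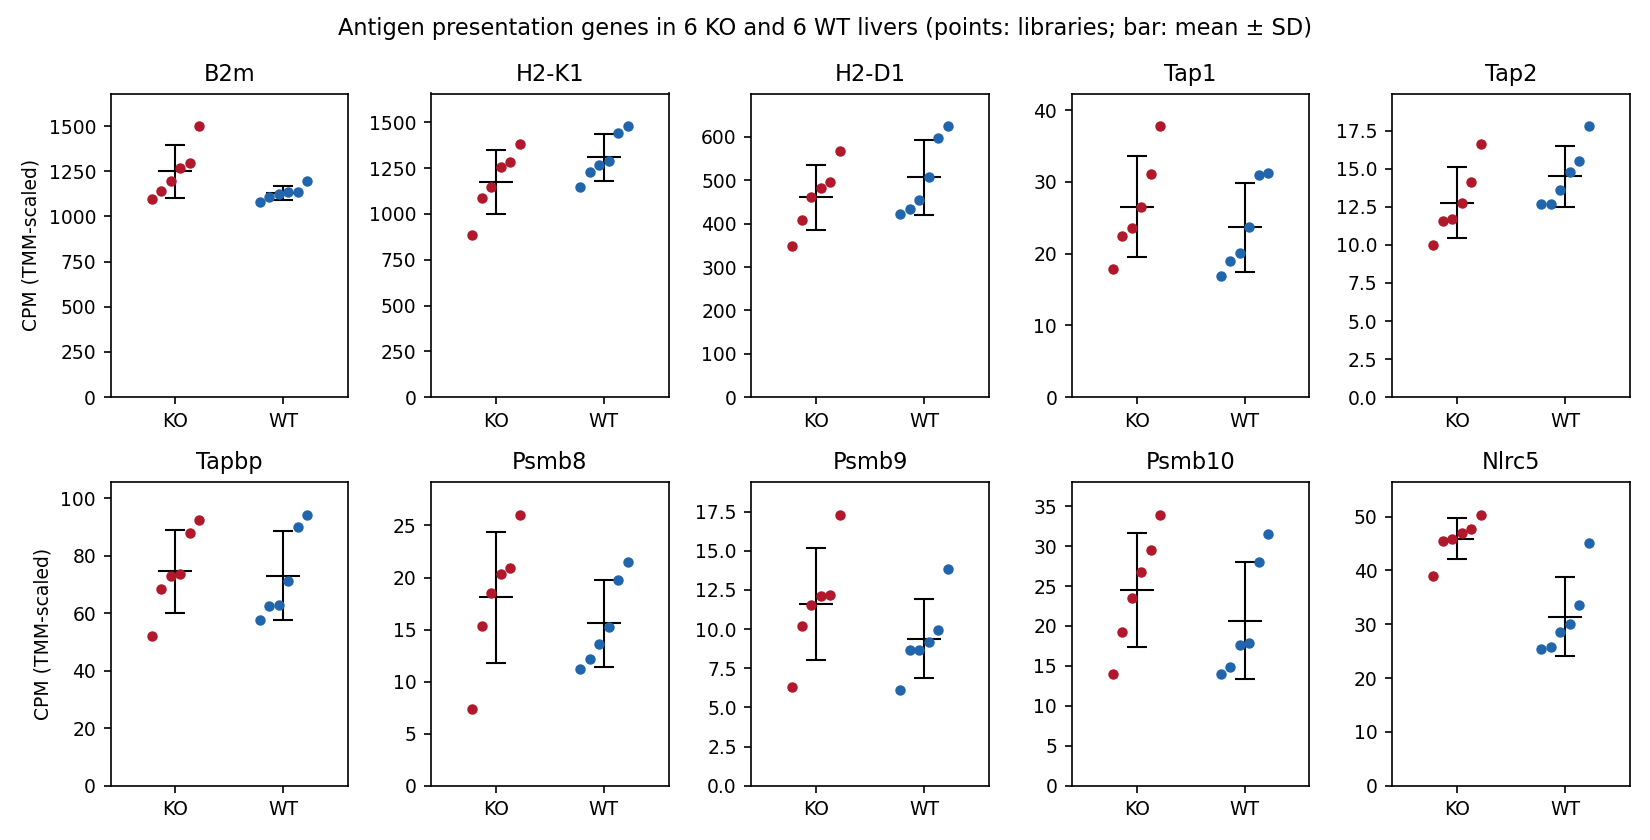
CPM of the 10 antigen presentation genes (vertical axes, from 0, scaled by TMM), with 6 KO libraries left of 6 WT libraries in each panel, a point per library and bars for mean ± SD. The Nlrc5 panel shows 5 of 6 WT livers below every KO liver, while in the other panels the groups overlap, with 3 of 6 KO livers above every WT liver for B2m.

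The heavy chains and their light chain came first in level. B2m encodes beta-2-microglobulin, the light chain shared by all class I molecules. It had 1095 CPM in the lowest, 1232 at the median and 1500 in the highest KO liver, against 1077, 1129 and 1197 CPM in WT livers. KO 588, KO 591 and KO 602 lay above every WT liver, and the other 3 KO livers lay within the WT range. The log2 fold change was 0.15 (SE 0.10, adjusted p = 0.41 by the quasi-likelihood test of edgeR with Benjamini-Hochberg adjustment, as for all adjusted p-values given here).

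H2-K1 encodes the K heavy chain, which with D presents peptides to CD8 T cells. Its CPM in KO livers were 887 at the lowest, 1202 at the median and 1379 at the highest, against 1144, 1277 and 1479 in WT livers. KO 780 and KO 584 lay below every WT liver and WT 601 and WT 590 above every KO liver, with overlap among the rest (log2 fold change -0.16, SE 0.12, adjusted p = 0.48).

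H2-D1, the D heavy chain, had 348, 471 and 568 CPM at the lowest, median and highest in KO livers, against 423, 480 and 625 CPM in WT livers. The order of libraries was close to that of H2-K1, with WT 590, WT 601 and KO 588 the 3 highest and KO 780 the lowest of all (log2 fold change -0.14, SE 0.14, adjusted p = 0.59). The light chain thus stood above 0 and both heavy chains below 0, none of them past the threshold.

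The transporter and the loading bridge showed no call either. Tap1 and Tap2 together encode the TAP peptide transporter. Tap1 had 17.9, 25.1 and 37.8 CPM at the lowest, median and highest in KO livers, against 16.9, 21.95 and 31.3 CPM in WT livers. KO 584 was the highest of all and WT 777 the lowest, and the groups overlapped over nearly the whole range (log2 fold change 0.16, SE 0.19, adjusted p = 0.67).

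Tap2 had 9.97, 12.2 and 16.6 CPM at the lowest, median and highest in KO livers, against 12.7, 14.2 and 17.8 CPM in WT livers. KO 780, KO 574 and KO 602 lay below every WT liver, while KO 584 was second only to WT 601 (log2 fold change -0.18, SE 0.12, adjusted p = 0.43). Tap1 and Tap2 thus had opposite signs, neither past the threshold.

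Tapbp encodes tapasin, which holds empty class I molecules at TAP. It had 52.1, 73.3 and 92.7 CPM at the lowest, median and highest in KO livers, against 57.7, 67.1 and 94.4 CPM in WT livers. WT 601 and KO 602 were the highest and KO 780 the lowest (log2 fold change 0.03, SE 0.15, adjusted p = 0.94). Its sign was negative in 9 of 23 other ways of processing the counts, none of which called it.

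The immunoproteasome subunits varied most among mice. Psmb8, Psmb9 and Psmb10 encode the catalytic subunits that take the places of Psmb5, Psmb6 and Psmb7 in the immunoproteasome. The highest library had 3.52 times the CPM of the lowest for Psmb8, 2.83 times for Psmb9 and 2.44 times for Psmb10, against 1.39 times for B2m.

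Psmb8 had 7.40, 19.4 and 26.1 CPM at the lowest, median and highest in KO livers, against 11.3, 14.4 and 21.5 CPM in WT livers. KO livers held both the highest and the lowest value, KO 588 and KO 780 (log2 fold change 0.22, SE 0.25, adjusted p = 0.66).

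Psmb9 had 6.31, 11.8 and 17.3 CPM at the lowest, median and highest in KO livers, against 6.12, 8.91 and 13.8 CPM in WT livers. KO 588 was again the highest, followed by WT 601, and WT 777 was the lowest, with KO 780 next to it (log2 fold change 0.31, SE 0.22, adjusted p = 0.44).

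Psmb10 had 14, 25.2 and 34.0 CPM at the lowest, median and highest in KO livers, against 13.9, 17.7 and 31.6 CPM in WT livers. The ranges nearly coincided, with KO 588 and WT 601 the 2 highest and WT 778 and KO 780 the 2 lowest (log2 fold change 0.25, SE 0.25, adjusted p = 0.59).

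The standard subunits gave a measure of this exchange that does not depend on library scaling. Psmb5 had a log2 fold change of -0.29 (SE 0.08, adjusted p = 0.062), Psmb6 of -0.19 (SE 0.08, adjusted p = 0.19) and Psmb7 of -0.26 (SE 0.09, adjusted p = 0.14). Counts were divided by exon length, and each immunoproteasome subunit was taken as a percentage of its standard counterpart in the same library. Psmb8 had 4.64% of the level of Psmb5 in the lowest, 11.1% at the median and 16.8% in the highest KO liver, against 4.87%, 7.36% and 11.7% in WT livers. Psmb9 had 3.45%, 5.27% and 8.46% of Psmb6 in KO livers, against 2.33%, 3.91% and 5.80% in WT livers. Psmb10 reached 59.1%, 115.0% and 159% of Psmb7 in KO livers, against 47.9%, 67.7% and 131% in WT livers.

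These percentages overlapped between groups for all 3 pairs, although KO means were 1.38, 1.38 and 1.40 times the WT means for Psmb8, Psmb9 and Psmb10. KO 780 had the lowest KO percentage in each pair, and WT 601 and WT 590 had the 2 highest WT percentages. Of libraries numbered 573 to 602, 5 were KO and 3 WT, and of 776 to 780, 1 was KO and 3 WT. In the first range, Psmb8 percentages were 8.97 to 16.8 in KO and 7.125 to 11.7 in WT. Those of Psmb9 were 5.16 to 8.46 and 4.15 to 5.80, and those of Psmb10 82.8 to 159 and 67.6 to 131. In the second, KO 780 had 4.64, 3.45 and 59.1, against 4.87 to 7.59, 2.33 to 3.67 and 47.9 to 67.8 in WT. The part of the range in the higher KO means was not tested. Per exon base, Psmb10 was near the level of Psmb7, and Psmb8 and Psmb9 were far below their counterparts, in KO and WT alike. This contrast depends on the exon lengths of the deposited table. As log2 ratios of counts without length, Psmb8 to Psmb5 ran from -2.77 to -0.93 in KO and from -2.70 to -1.45 in WT. Psmb10 to Psmb7 ran from -2.18 to -0.76 and from -2.485 to -1.04, overlapping those of Psmb8. Psmb9 to Psmb6 was lower, at -3.87 to -2.59 and -4.44 to -3.13.

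**Figure D2:**
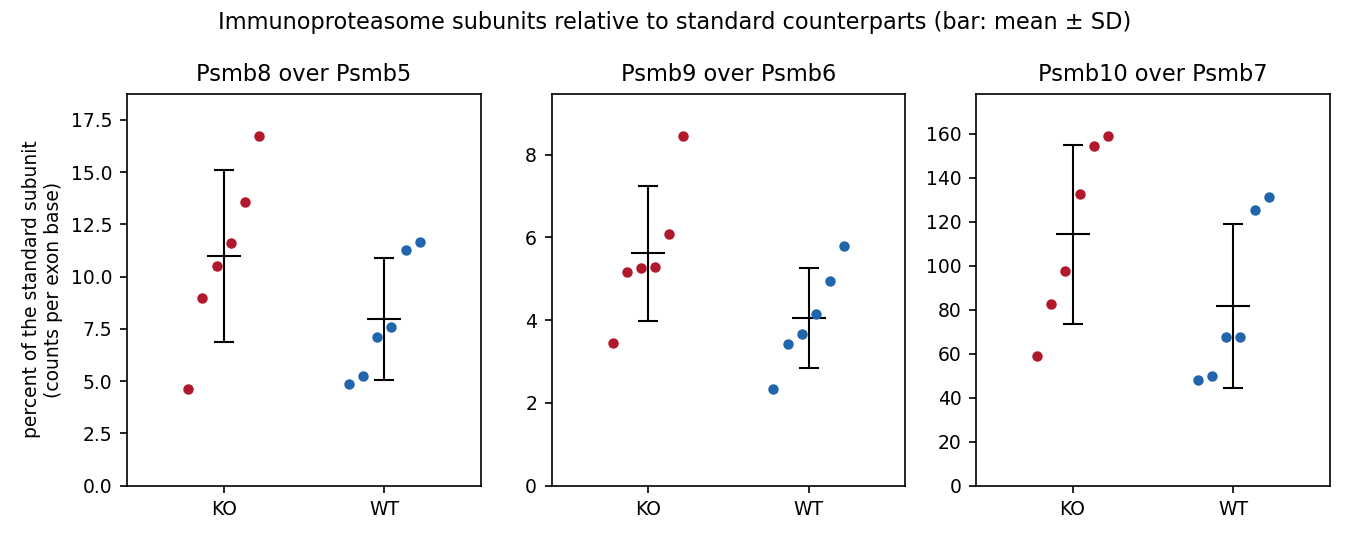
Each immunoproteasome subunit as a percentage of its standard counterpart (vertical axes, from 0, counts per exon base), with 6 KO libraries left of 6 WT libraries, a point per library and bars for mean ± SD. KO means stand at 1.38 to 1.40 times the WT means, and the groups overlap in all 3 panels. The library number ranges, unevenly split between KO and WT, are not marked.

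Nlrc5, the class I transactivator of the NOD-like receptor family, was the gene that rose. It had 38.9 CPM in the lowest, 46.4 at the median and 50.4 in the highest KO liver, against 25.4, 29.3 and 45.2 CPM in WT livers. WT 590, at 45.2 CPM, lay within the KO range, above KO 780 at 38.9, and the other 5 WT livers, at 33.6 or less, lay below every KO liver. KO livers were 1.46 times as high (log2 fold change 0.55, SE 0.13, adjusted p = 0.031). An exact two-sided permutation test on log2 CPM, not adjusted for the number of genes, gave p = 0.00433. The 6 KO livers were close to each other, with an SD of 3.83 CPM around 45.9, and the WT livers varied more, with an SD of 7.39 CPM around 31.4.

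The sign of the Nlrc5 difference was the same under all 23 alternatives, with log2 fold changes of 0.39 to 0.68, and 12 of them passed the threshold. Leaving out 1 library kept the call without KO 584, KO 780 or WT 590 and lost it without KO 574, KO 588, KO 591, KO 602, WT 573, WT 601, WT 776, WT 777 or WT 778 (adjusted p 0.052 to 0.078). Library numbers fall into 573 to 602 (5 KO, 3 WT) and 776 to 780 (1 KO, 3 WT), and the labels do not say what they mark. Within 573 to 602, Nlrc5 had 45.4 to 50.4 CPM in KO and 29.96 to 45.2 CPM in WT, a difference in mean log2 CPM of 0.40. Within 776 to 780, KO 780 had 38.9 CPM against 25.4 to 28.6 CPM in WT, a difference of 0.55. Fitted on the libraries 573 to 602 alone, where 0.407% of genes were called, the adjusted p was 0.22. With the range as a covariate over all libraries, where 4.99% were called, it was 0.022.

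By range, the other genes gave mixed signs. In KO 780, 9 of the 10 genes lay below the mean log2 CPM of WT 776, WT 777 and WT 778, by 0.02 (B2m) to 0.78 (Psmb8), and Nlrc5 alone lay above it. Among the libraries 573 to 602, B2m, Tap1, Psmb8, Psmb9, Psmb10 and Nlrc5 had higher means in KO, and H2-K1, H2-D1, Tap2 and Tapbp lower ones. With the range as a covariate, 3 of the 10 log2 fold changes were above 0, those of Nlrc5 (0.43), B2m (0.11) and Psmb9 (0.08). Psmb8 then stood at -0.09, Psmb10 at -0.004, Tap1 at -0.006 and Tapbp at -0.14, none of them called.

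Nlrc5 was next set against the other 9 genes within each library, which removes library scaling. These 9 ratios were chosen after the values were seen and are given as a description. Nlrc5 had 3.41 counts per 100 counts of H2-K1 in the lowest, 4.09 at the median and 4.39 in the highest KO liver, against 2.03, 2.22 and 3.14 in WT livers, without overlap. Of all tested genes, 2.48% had a ratio to H2-K1 that was higher in every KO than in every WT liver. Per 100 counts of H2-D1 it had 8.27, 10.4 and 11.2 in KO livers, against 5.01, 5.98 and 7.41 in WT livers, also without overlap, as 1.71% of all genes had. The ratio to Tapbp was the only other one without overlap (51.5 to 74.7 in KO, 31.7 to 50.2 in WT), and 0.598% of all genes had such a ratio to Tapbp. Ratios of Nlrc5 to B2m, Tap1, Tap2, Psmb8, Psmb9 and Psmb10 overlapped between groups.

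**Figure D3:**
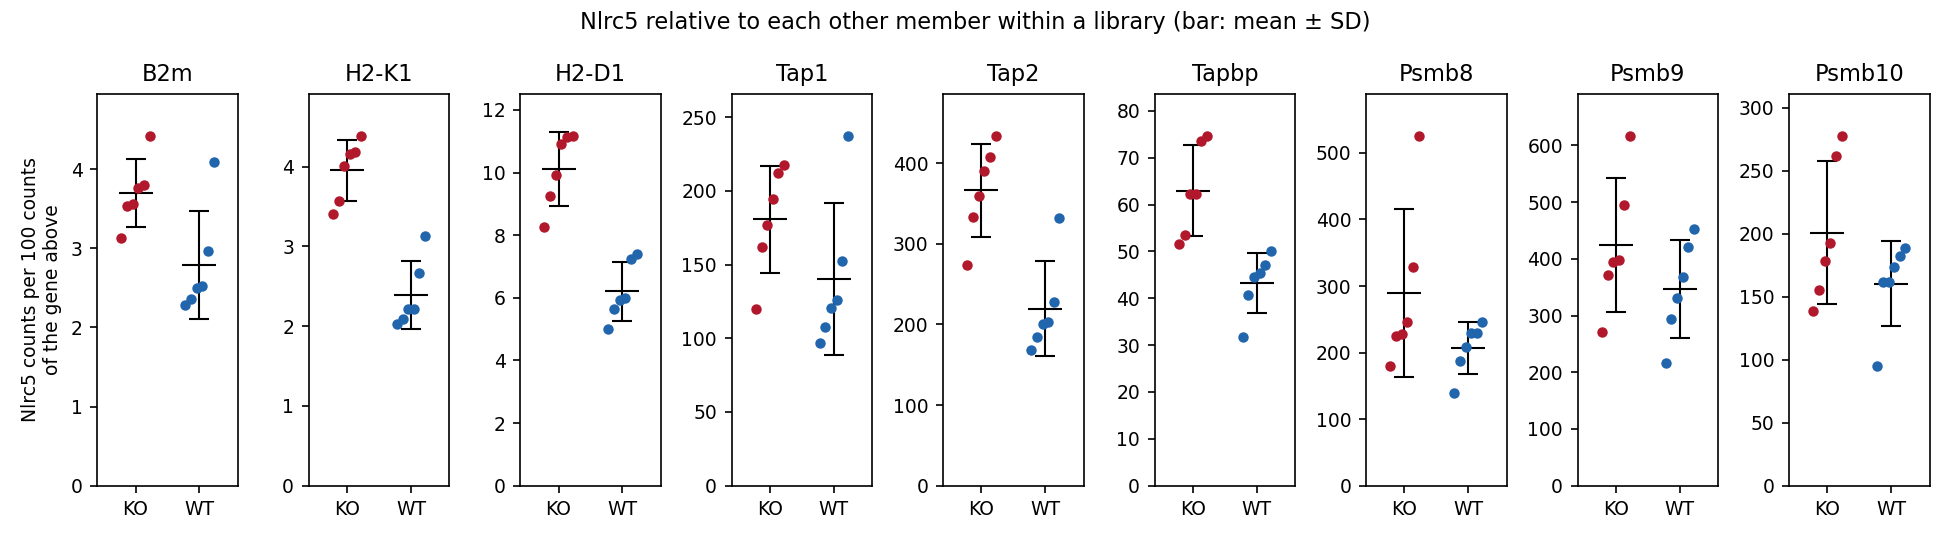
Nlrc5 counts per 100 counts of each of the other 9 genes in the same library (vertical axes, from 0, not corrected for length), with 6 KO libraries left of 6 WT libraries and bars for mean ± SD. The groups are apart for H2-K1, H2-D1 and Tapbp and overlap for the other 6 genes.

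Per kilobase of exon, the order of the genes was nearly the same in both genotypes. B2m had 1452 ± 168 CPM per kb in KO and 1312 ± 46.2 in WT (SD, n = 6 each), H2-K1 449.7 ± 66.7 in KO and 501.6 ± 49.2 in WT, and H2-D1 178 ± 29.4 in KO and 196 ± 33.6 in WT. From B2m to H2-K1, from H2-K1 to H2-D1 and from H2-D1 to Tapbp, the ranges did not overlap within either genotype, while those of Tapbp and Psmb10 did. Tapbp had 22.6 ± 4.40 CPM per kb in KO and 22.2 ± 4.69 in WT, and Psmb10 19.3 ± 5.65 in KO and 16.3 ± 5.78 in WT. Psmb10 was clear of the remaining 5, whose means lay between 3.17 and 6.61 CPM per kb in KO and between 2.57 and 5.70 in WT. Among these, each neighbour overlapped the next, in the order Psmb8, Nlrc5, Tap1, Tap2 and Psmb9 in KO and Psmb8, Tap1, Nlrc5, Tap2 and Psmb9 in WT.

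The libraries that were high or low were largely the same for many of the genes. KO 588 was among the 5 highest libraries for all 10 genes and WT 601 for 9. KO 780 was among the 3 lowest for 9 genes and the lowest of all for 5, namely H2-K1, H2-D1, Tap2, Tapbp and Psmb8, as it was for 12% of all tested genes. The exception was Nlrc5, for which 5 WT livers were lower than KO 780.

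Saa1, an acute phase protein of hepatocytes, split the libraries in another way, across genotype. It had 17490 CPM in KO 602, 3653 in KO 588, 1840 in KO 591, 8337 in WT 590 and 6920 in WT 601, and no more than 83.8 CPM in the other 7 libraries. All 5 are numbered 573 to 602, so the settings by Saa1 and by number range are not independent of each other. Fits without the 5 lose 3 KO and 2 WT libraries. These 5 were the 5 highest libraries for Tapbp, Psmb8 and Psmb10, a pattern that 440 tested genes (3.21%) had. The Psmb8 to Psmb5 and Psmb10 to Psmb7 percentages had the same 5 libraries on top. WT 590, the WT liver with the most Nlrc5, was one of the 5, while WT 601, at 29.96 CPM of Nlrc5, was another. Without the 5 libraries the log2 fold change of Nlrc5 was 0.66 (adjusted p = 0.038, beside 1.72% of genes called). With log2 CPM of Saa1 as a covariate it was 0.50 (adjusted p = 0.020, beside 6.55% called), and without the 2 deepest libraries, KO 588 and WT 573, it was 0.56 (adjusted p = 0.093, beside 1.51% called). The 10 acute phase genes summed to 10280 to 99130 CPM in KO and 8772 to 56030 CPM in WT, and none was called by edgeR, DESeq2 or limma-voom or passed an unadjusted p of 0.05. The part of the acute phase genes in the spread of the other genes was not tested.

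**Figure D4:**
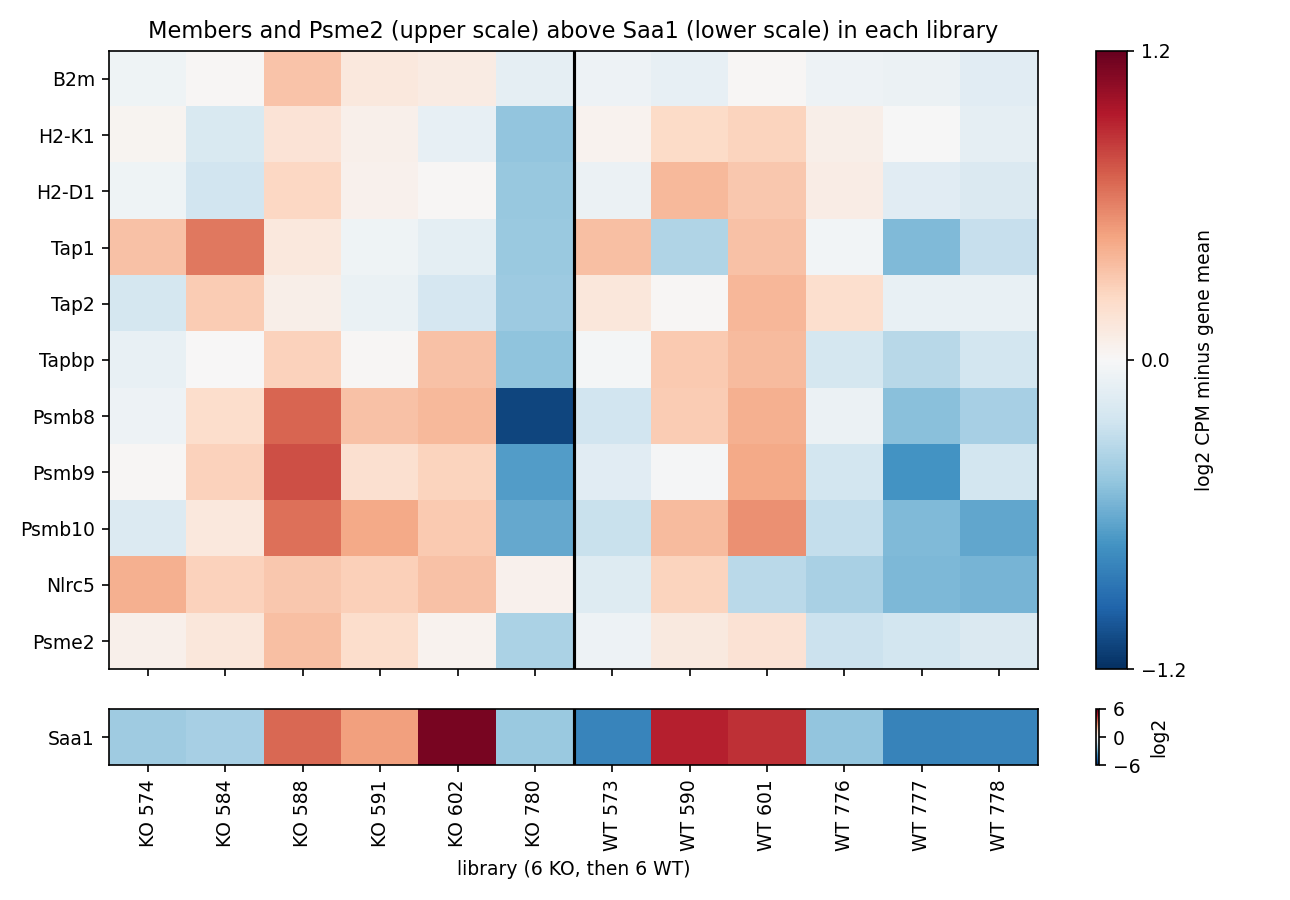
Log2 CPM of the 10 antigen presentation genes and Psme2, each minus its mean over 12 libraries (upper colour scale), above Saa1 (lower colour scale, same unit, wider range), with 6 KO libraries left of the line and 6 WT libraries right of it. KO 588 and WT 601 are red for nearly all genes, KO 780 is blue for all but Nlrc5, and the Nlrc5 row is red throughout KO and blue in 5 of 6 WT libraries.

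The 6 genes whose log2 CPM followed the mean of the 10 genes most closely over all 12 libraries were found by Spearman's rho among 11943 other tested genes with a mean of at least 1 CPM. They were Gm27216 and Psme2 (0.93 each), Smim19 (0.91), Apol9b (0.90), and Azin2 and Sult1c2 (0.89 each). Psme2 encodes a subunit of the interferon-inducible PA28 activator of the proteasome. It had 53.3, 74.2 and 89.3 CPM at the lowest, median and highest in KO livers, against 58.2, 64.0 and 78.3 CPM in WT livers, and was not called (log2 fold change 0.15, SE 0.12, adjusted p = 0.50). The other 5 were not called either. The points share library depth and scaling, and the values are a description.

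Other genes of the pathway were taken from lists by role. Of 15 tested class I heavy chains beyond K and D, H2-Q1 fell and none rose (median log2 fold change -0.05, which was 0.03 without KO 780, 0.01 without WT 601 and 0.007 with library totals only). H2-Q1, a heavy chain of the Q region, had 0.13, 0.41 and 0.81 CPM at the lowest, median and highest in KO livers, against 0.55, 2.55 and 6.82 CPM in WT livers. The groups overlapped, with 5 of 6 WT livers above every KO liver (log2 fold change -2.66, SE 0.61, adjusted p = 0.033). The call was lost without KO 574, KO 588, KO 591, KO 602, KO 780, WT 573 or WT 776 (adjusted p 0.051 to 0.080), by limma-voom (adjusted p = 0.093), with no low-count filter (adjusted p = 0.089), without the 5 libraries with high Saa1 (adjusted p = 0.26) and without the 2 deepest (adjusted p = 0.13). Its close relatives make its counts uncertain, and so does its low level in KO. In KO libraries 3 counts equal 0.059 to 0.131 CPM, near the lowest KO value of 0.13 CPM. H2-M3, the heavy chain with the paired cores in its promoter, had 2.02 to 2.78 CPM in KO and 1.39 to 2.003 CPM in WT, without overlap, and was not called (log2 fold change 0.45, SE 0.15, adjusted p = 0.10). It was added for its promoter, after its values were seen.

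Of 10 peptide loading and trimming partners, Blmh fell and none rose (median -0.08). Blmh encodes bleomycin hydrolase, a cytosolic cysteine aminopeptidase. It had 30.3, 31.9 and 40.1 CPM at the lowest, median and highest in KO livers, against 41.3, 43.7 and 47.0 CPM in WT livers, without overlap (log2 fold change -0.38, SE 0.08, adjusted p = 0.016). The call held without any 1 library (adjusted p 0.0054 to 0.041). It was lost with library totals only (adjusted p = 0.065) and among the libraries 573 to 602 (adjusted p = 0.18), where the log2 fold change was -0.37. Without the 5 libraries with high Saa1 (adjusted p = 0.15) or the 2 deepest (adjusted p = 0.085) it was lost as well.

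The rest of the proteasome gave no call by edgeR in the main analysis. All 11 other 20S subunits had log2 fold changes below 0 (median -0.18), as did the 3 standard catalytic subunits (median -0.26) and 5 of 6 activator and assembly genes (median -0.13). In the libraries 573 to 602 these medians were -0.06, -0.14 and -0.05, and that of the activator and assembly genes was -0.08 with library totals only. At an unadjusted p of 0.05, 5 of 11, 3 of 3 and 2 of 6 passed, and DESeq2 called 4, 1 and 0, while limma-voom called 0 in each. The share of all tested genes past an unadjusted p of 0.05 was not counted, for these lists or those below. Psma4, an alpha ring subunit, had 84.2 to 106 CPM in KO and 109 to 126 CPM in WT, without overlap, and missed the threshold (log2 fold change -0.27, SE 0.07, adjusted p = 0.055). Psmb3 (log2 fold change -0.28, adjusted p = 0.069), the assembly factor Pomp (-0.24, adjusted p = 0.13) and the inhibitor Psmf1 (-0.22, adjusted p = 0.14) came next. Of these 14 other 20S genes, all were below 0 under 22 of 23 alternatives and 12 in the libraries 573 to 602, whatever the scaling. The 3 immunoproteasome subunits were above 0, except with the range as a covariate, where Psmb8 and Psmb10 were below 0, and the difference between the 2 sets was not tested.

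**Figure D5:**
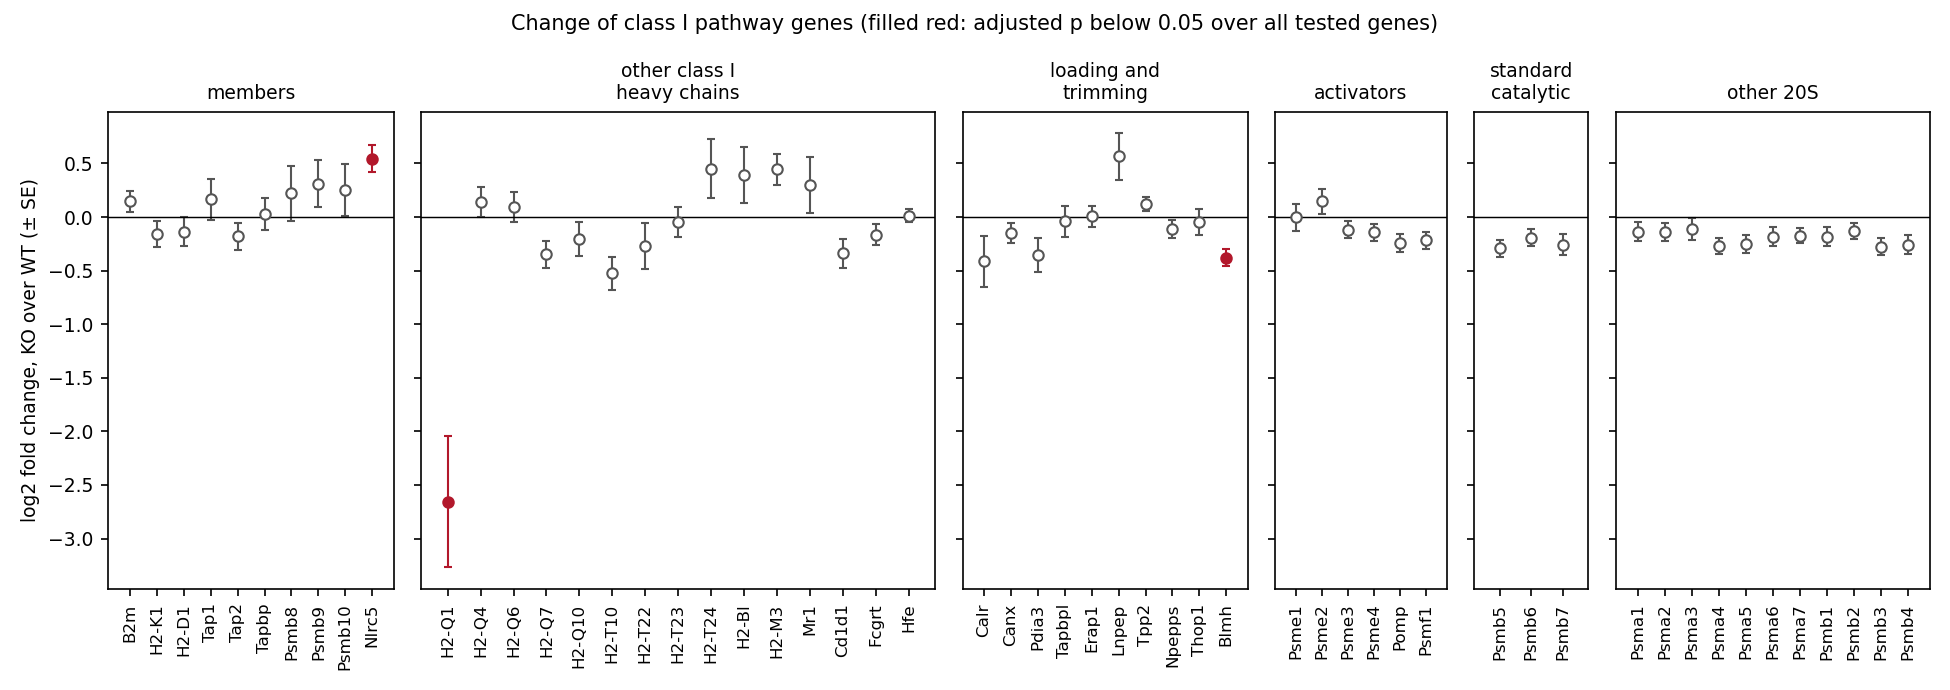
Log2 fold change, KO over WT, with ± SE (vertical axis), for the 10 antigen presentation genes and 45 tested genes of the class I pathway by role. Filled red points (Nlrc5 higher, H2-Q1 and Blmh lower) passed an adjusted p of 0.05 over all tested genes, and all 14 standard catalytic and other 20S subunits lie below 0.

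Of 16 transcription factors that bind or regulate class I genes, none was called by edgeR in the main analysis. At an unadjusted p of 0.05, 4 passed, and DESeq2 called 3 and limma-voom 1. Their median log2 fold change was 0.12. It was 0.06 without KO 584 or KO 780 and in the libraries 573 to 602, and 0.24 without the 5 libraries with high Saa1. Irf8, an interferon regulatory factor of myeloid cells, had 4.77 to 8.03 CPM in KO and 3.22 to 5.57 CPM in WT, with overlap (log2 fold change 0.58, SE 0.15, adjusted p = 0.051). Nfya, a subunit of the NF-Y factor that binds the Y box printed above, had 11.02 to 14.6 CPM in KO and 9.42 to 10.8 CPM in WT, without overlap (log2 fold change 0.32, SE 0.09, adjusted p = 0.054). Nfya passed with the number range (adjusted p = 0.045) or Saa1 (adjusted p = 0.026) as a covariate and without the 5 libraries with high Saa1 (adjusted p = 0.045). Irf8 passed with Saa1 as a covariate (adjusted p = 0.048) and with library totals only (adjusted p = 0.040). Nfyb, another NF-Y subunit, passed with the number range as a covariate (log2 fold change -0.38, adjusted p = 0.036). With a mean of at least 1 CPM, Irf8 (adjusted p = 0.049) and Nfya (adjusted p = 0.044) passed. Irf1, a known carrier of the interferon-gamma signal to these genes, had a log2 fold change of 0.21 (adjusted p = 0.46). It was named after its values were seen.

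Interferon ligands were at or near 0 counts. Ifng had 0 to 4 counts in KO and 0 to 1 count in WT, and Ifnb1 had 1 count in 1 KO library and 0 in the other 11. The list of 9 also held cytokines that induce interferon. Only 2 of the 9 were abundant enough to be tested, both of them such cytokines. These were Il15 (log2 fold change 0.60, SE 0.22, adjusted p = 0.14) and Il18 (0.11, SE 0.22, adjusted p = 0.82). Of 9 tested receptors, kinases and inhibitors, none was called by edgeR, DESeq2 or limma-voom, and none passed an unadjusted p of 0.05. The leading values were Jak2 (log2 fold change 0.21, adjusted p = 0.24) and Ifngr1 (0.20, adjusted p = 0.26).

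Of 16 interferon-gamma targets tested, 14 were above 0 (median 0.51), and Gbp3 rose. The median was 0.29 without KO 584 and 0.79 in the libraries 573 to 602. At an unadjusted p of 0.05, 4 passed, and DESeq2 called 1 and limma-voom 0. Gbp3, a guanylate-binding protein, had 5.42, 12.1 and 16.2 CPM at the lowest, median and highest in KO livers, against 2.82, 4.56 and 7.25 CPM in WT livers. The groups overlapped, with 4 of 6 KO livers above every WT liver (log2 fold change 1.21, SE 0.31, adjusted p = 0.049). The call was lost without KO 574, KO 584, KO 588, KO 591, WT 573, WT 590, WT 601, WT 777 or WT 778 (adjusted p 0.073 to 0.11). It was also lost with library totals only, by limma-voom, with the number range as a covariate, with no low-count filter, in the libraries 573 to 602, without the 2 deepest and without the 5 libraries with high Saa1 (adjusted p 0.058 to 0.19), with log2 fold changes of 1.04 to 1.35.

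Of 18 type I interferon targets tested, 17 were above 0 (median 0.87), and Oas1a and Oas2 rose. At an unadjusted p of 0.05, 12 passed, all higher, and DESeq2 called 6 and limma-voom 2. The share of all tested genes past that unadjusted p was not counted. Oas1a and Oas2 encode oligoadenylate synthetases, which sense double-stranded RNA. Oas1a had 1.89, 3.32 and 4.51 CPM at the lowest, median and highest in KO livers, against 0.70, 1.16 and 1.69 CPM in WT livers, without overlap (log2 fold change 1.42, SE 0.23, adjusted p = 0.0044). Oas2 had 3.42, 5.52 and 8.07 CPM in KO livers, against 1.72, 2.69 and 3.19 CPM in WT livers, also without overlap (log2 fold change 1.17, SE 0.22, adjusted p = 0.0098). Oas1a belongs to a family of close copies, which makes its counts uncertain. Without the 5 libraries with high Saa1 the adjusted p was 0.072 for Oas1a and 0.068 for Oas2, and among the libraries 573 to 602 it was 0.15 for Oas2. The list medians of 0.51 and 0.87 stand beside 0.01 for all tested genes and 0.16 for the 10 antigen presentation genes.

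Markers of other liver cells were mostly higher on average in KO livers, beside Nlrc5. In bulk tissue, more cells of a type and more RNA per cell cannot be told apart. All 12 Kupffer cell and macrophage markers were above 0 (median 0.68), with a summed 162, 339 and 550 CPM at the lowest, median and highest in KO livers, against 159, 226 and 250 CPM in WT livers. None of the 12 was called by edgeR in the main analysis or by limma-voom, while DESeq2 called 3 and 11 passed an unadjusted p of 0.05. The share of all tested genes past that unadjusted p was not counted. Csf1r had a log2 fold change of 0.70 (adjusted p = 0.10) and Clec4f of 0.75 (adjusted p = 0.11). Without the 5 libraries with high Saa1 the median of the 12 was 0.16, that of 10 sinusoidal endothelial markers 0.21 (0.28 in all libraries), that of 8 stellate cell markers 0.49 (0.49 in all) and Nlrc5 at 0.66. With Saa1 as a covariate the median of the 12 was 0.45.

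Sinusoidal endothelial markers summed to 228 to 276 CPM in KO and 145 to 278 CPM in WT, with all 10 above 0 and Stab2 called (log2 fold change 0.48, adjusted p = 0.045). At an unadjusted p of 0.05, 3 of 10 passed, and DESeq2 and limma-voom called 1 each. The Stab2 call was lost without KO 574, KO 588, KO 591, KO 602, WT 573, WT 590, WT 601, WT 776 or WT 777 (adjusted p 0.067 to 0.10). It was also lost with Saa1 (adjusted p = 0.052) or the number range (adjusted p = 0.069) as a covariate, in the libraries 573 to 602 (adjusted p = 0.11), without the 2 deepest (adjusted p = 0.14) and without the 5 libraries with high Saa1 (log2 fold change 0.28, adjusted p = 0.37). Stellate cell markers summed to 306 to 499 CPM in KO and 208 to 371 CPM in WT, with all 8 above 0 and Pdgfrb (0.43, adjusted p = 0.024) and Lrat (0.68, adjusted p = 0.026) called. At an unadjusted p of 0.05, 7 of 8 passed, all higher, and DESeq2 and limma-voom called 3 each. With the number range as a covariate, edgeR called 6 of the 8, beside 4.99% of all genes. Pdgfrb was lost without KO 574, WT 573 or WT 778 (adjusted p 0.050 to 0.056), and Lrat without KO 574, KO 588, WT 573, WT 776 or WT 777 (adjusted p 0.051 to 0.063). Pdgfrb and Lrat were also lost in the libraries 573 to 602 (adjusted p = 0.22 and 0.21), without the 5 libraries with high Saa1 (adjusted p = 0.063 and 0.10) and without the 2 deepest (adjusted p = 0.072 and 0.12), and Pdgfrb with no low-count filter (adjusted p = 0.055).

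Lymphocyte markers were low. Of 13 T and NK cell markers 3 were tested, and the 10 others, Cd3d, Cd8a, Gzma and Prf1 among them, had at most 30 counts in any library. The 13 summed to 8.52 to 10.7 CPM in KO and 4.80 to 12.9 CPM in WT, most of it Ptprc, which all leukocytes carry (5.05 to 7.86 CPM in KO, 2.77 to 6.40 CPM in WT, log2 fold change 0.64, adjusted p = 0.087). B and plasma cell markers summed to 4.13 to 7.26 CPM in KO and 4.10 to 13.2 CPM in WT. No marker of either list was called by edgeR, though 1 T and NK cell marker passed by DESeq2 and by limma-voom, and 1 and 0 passed an unadjusted p of 0.05.

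MHC class II genes, which mark antigen-presenting cells, summed to 83.3, 110 and 126 CPM at the lowest, median and highest in KO livers, against 41.3, 76.1 and 168 CPM in WT livers. Of 9 tested, 8 were above 0 (median 0.35, which was 0.22 without WT 590, 0.59 without WT 776, 0.81 in the libraries 573 to 602 and 0.03 without the 5 libraries with high Saa1), and none was called by edgeR, DESeq2 or limma-voom, with 2 past an unadjusted p of 0.05. These were H2-DMb1 (log2 fold change 0.74, adjusted p = 0.12) and the class II transactivator Ciita (0.76, adjusted p = 0.16), which belongs to the same protein family as Nlrc5. Dendritic cell markers summed to 12 to 16.5 CPM in KO and 8.54 to 19.6 CPM in WT. Neutrophil and monocyte markers summed to 4.29 to 24.8 CPM in KO and 2.82 to 7.70 CPM in WT. Neither list had a call by edgeR in the main analysis or by limma-voom, with 0 and 1 by DESeq2, and 0 and 1 past an unadjusted p of 0.05. Of 5 tested dendritic cell markers, 4 were above 0 (median 0.35). All 4 tested neutrophil and monocyte markers were above 0 (median 1.00, which was 0.25 without KO 602 and -0.23 without the 5 libraries with high Saa1). Csf3r (log2 fold change 0.955, adjusted p = 0.058) passed under 6 of 23 alternatives, and S100a8 (1.196, adjusted p = 0.35) under 0. Hepatocyte markers had 7 of 8 below 0 (median -0.10, and -0.18 to -0.04 with any 1 library left out, KO 780 and KO 602 giving these ends) and no call by edgeR, DESeq2 or limma-voom, with 2 past an unadjusted p of 0.05. The part of these cells in the Nlrc5 difference was not tested.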

How the data were processed

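Livers of 6 A1cf -/- and 6 wild-type mice gave 12 RNA libraries (miRNeasy extraction, TruSeq RNA kit, per the labels' protocols). The authors deposited raw fragment counts per gene, made by featureCounts 1.5.0-p2 with GENCODE M8 exons, per the file headers. No strand option is set in that command, and its default leaves out reads that overlap several genes. STAR, DESeq2 and mm10 appear in the submitters' processing notes. The deposited table also gives another value per gene, its exon length, used for levels per kilobase. No column lacked a sample (0 unmapped).

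R 4.3.3 and edgeR 4.0.16 were used, with filterByExpr at a minimum count of 10, TMM scaling and the robust quasi-likelihood test of genotype. Adjustment was by the Benjamini-Hochberg method over 13706 genes, at a threshold of 0.05. The SE is the size of the log2 fold change over the square root of F. Log2 CPM used a prior count of 2. Exact permutation tests used all 924 assignments of libraries, which can give no p below 0.002165. Steps were tested on simulated data.

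The 10 genes, the gene lists and the tests were chosen with earlier results of these data known. Named genes were the 10, A1cf, the 3 standard subunits, the 6 most like genes and, from each list, up to 4 called members (2 for marker lists) or, where none was called, up to 2 leading by p. Irf1, H2-M3 and Saa1 were added after their values were seen.

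Alternatives were RLE factors, totals only, no filter, a mean of 1 CPM or more, DESeq2 1.42.0, limma-voom (limma 3.58.1), the library number range as a covariate, libraries 573 to 602 only, and each library left out. Chosen after the data were seen were fits without the 5 libraries with Saa1 above 1000 CPM, without the 2 deepest libraries (KO 588 and WT 573), and with Saa1 as a covariate. The groups share no library number, so no pairing was fitted. Promoters are those of RefSeq, GRCm38.p6. The series' design text calls the libraries biological replicates.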

Additional observations from a re-analysis of the deposited data

Results flagged for a closer look

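Single libraries stood apart from the other 5 of their group in 5 of 108 groups of values, taken over 54 named genes, and chance alone sets apart about 1 in 20 groups. None of the 10 antigen presentation genes had such a library. S100a8, a neutrophil protein, had 5.67 CPM in KO 602, against 0.21 to 1.496 CPM in the other KO livers. Saa3, an acute phase gene, had 1370 CPM in KO 602, against 1.87 to 24.5 CPM in the other KO livers. Saa3 had 309 CPM in WT 590, against 3.69 to 61.2 CPM in the other WT livers. Fgb, a fibrinogen chain made by hepatocytes, had 10000 CPM in KO 602, against 3011 to 4091 CPM in the other KO livers. Fgb had 7590 CPM in WT 590, against 2443 to 4021 CPM in the other WT livers. KO 602 and WT 590 are 2 of the 5 libraries with high Saa1, and WT 590 is the WT liver whose Nlrc5 lay within the KO range.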

How the results depend on the processing

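No paired analysis was possible because the KO and WT libraries share no number. The count of genes past the threshold, 523, was 1190 by DESeq2, 57 in the libraries 573 to 602, 240 without the 5 libraries with high Saa1, 206 without the 2 deepest libraries, 898 with Saa1 as a covariate, and 266 to 638 when any 1 library was left out. It was 266 to 324 without KO 574, KO 588, KO 591, WT 573, WT 777 or WT 778. Of the 10 antigen presentation genes, 1 was called in the main analysis, 0 in the libraries 573 to 602, 0 without the 2 deepest libraries and 0 to 1 when any 1 library was left out. Nlrc5 had a log2 fold change of 0.56 (adjusted p = 0.093) without the 2 deepest libraries and 0.68 (adjusted p = 0.0018) without WT 590. Fits with fewer libraries have less power by construction, yet 638 genes were called without WT 590 and 543 without KO 584. The cause of these shifts was not tested. The other 9 genes were not called under any of the 23 alternatives. B2m, H2-K1, H2-D1, Tap2, Psmb9 and Nlrc5 kept their sign under all 23, Tap1, Psmb8 and Psmb10 under 22 and Tapbp under 14. With the number range as a covariate, H2-Q7 (log2 fold change -0.46, adjusted p = 0.033), H2-T10 (-0.65, adjusted p = 0.018), H2-T22 (-0.51, adjusted p = 0.030), Pdia3 (-0.51, adjusted p = 0.040) and Nfyb (-0.38, adjusted p = 0.036) fell as well and Nfya (0.35, adjusted p = 0.045) rose. With Saa1 as a covariate, H2-Q7, H2-T10, Cd1d1, Calr, Pdia3, Psmb5 and Psma4 fell (log2 fold changes -0.62 to -0.24) and Irf8, Nfya, Ifit2, Ifit3b and Ifi44 rose (0.35 to 1.51), with adjusted p 0.015 to 0.049. Signs without a call turned as follows. Tapbp was at -0.14 and Tap1 at -0.006, Psmb8 at -0.087, Psmb10 at -0.004, Il18 at -0.093 and Apol9b at -0.11 with the number range as a covariate. In the libraries 573 to 602, Tapbp was at -0.10, Il18 at -0.12 and Jchain at 0.25. Without the 5 libraries with high Saa1, Cd79a was at -0.088, S100a8 at -0.24, Saa3 at -0.864, Gm27216 at 0.064 and Smim19 at 0.079. With Saa1 as a covariate, Tapbp was at -0.081, Il18 at -0.034 and Saa3 at -0.991. Tapbp was at -0.03 without the 2 deepest libraries. With library totals only, Gm27216 was at 0.038 and Smim19 at 0.047. By limma-voom, Saa3 was at -0.11, Gm27216 at 0.013 and Smim19 at 0.01, and with a mean of at least 1 CPM Smim19 was at 0.006. With any 1 library left out, Tapbp ran from -0.039 to 0.12, Saa3 from -2.74 to 3.70, Fgb from -0.052 to 0.62, Gm27216 from -0.092 to 0.094 and Smim19 from -0.048 to 0.077. A prior count of 2 in the subunit ratios changed no value beyond its spread between libraries. At these depths genes below the filter, interferon ligands among them, could not be compared.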
